A study of Mus musculus with 68 samples.

Results

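Mammary tumours of a mouse backcross were divided by how strongly they expressed Ifi202b, a gene of the interferon-inducible Ifi200 cluster on chromosome 1, and all other genes were compared between both sides. Of 68 arrays, 56 were kept because the mean of their 18S ribosomal RNA control probe sets lay below 8 (log2), and each of these 56 came from an animal of its own. The sides were chosen by the measured value of the brightest probe set annotated to Ifi202b alone. Tumours with a value above 8.5 form the high-Ifi202b side (36 arrays), and those at 8.5 or below form the low-Ifi202b side (20 arrays). Both sides hold spontaneous tumours of animals carrying MMTV-PyMT, a transgene in which a mouse mammary tumour virus promoter drives the polyoma middle T oncogene in mammary epithelium. Every animal descended from a cross of NZB with PyMT that was bred back to FVB, and the labels give no age, treatment or genotype at any locus. The arrays carry total RNA of whole tumour pieces, so that fewer cells of a type and less RNA per cell cannot be told apart. At a locus where NZB and the other parent differ, a backcross gives animals with 1 of 2 genotypes, and the 2 levels of Ifi202b are taken here only as putative genotypes.

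The Ifi200 genes encode interferon-inducible proteins, most of which bind DNA through HIN domains, and several also carry a pyrin domain. Ifi202b encodes p202, which has HIN domains and no pyrin domain, binds double-stranded DNA and can oppose the cytosolic DNA sensor Aim2, its neighbour on chromosome 1. NZB is a strain known for high Ifi202, and the gene has long been studied in lupus-prone mice. Type I interferon acts through the receptor chains Ifnar1 and Ifnar2 and through factors such as Stat2 and Irf9, which take part in binding to interferon-stimulated response elements in promoters of genes such as Ifit1, Mx1 and Oas2.

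The promoters of the cluster are shown because 9 of 12 promoters of the Ifi200 family list hold an element of the interferon-response type. The Ifi202b promoter window does not hold it, and is not the only family promoter without it. All sequences are from RefSeq (GRCm38.p6), 5' to 3' on the strand of the gene. The 250 bases before the start of Ifi202b lie at chr1:173982845-173983094 on the minus strand.
Ifi202b: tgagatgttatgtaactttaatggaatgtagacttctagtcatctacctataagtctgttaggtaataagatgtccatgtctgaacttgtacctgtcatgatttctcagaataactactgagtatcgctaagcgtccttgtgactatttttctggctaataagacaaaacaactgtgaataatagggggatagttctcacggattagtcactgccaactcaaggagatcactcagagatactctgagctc
The motif GAAANNGAAA was searched on both strands (TTTCNNTTTC on the other) from 250 bases before to 50 after each start. It was found in 3.44% of all 32851 promoters, in 9 of 12 promoters of the Ifi200 family list and in 11 of 21 promoters of the interferon response list. The windows below give the motif in capitals with 10 bases on each side, for 5 family members and for 3 interferon response genes whose levels are described further on.
Ifi203, chr1:173942508-173942537, minus strand: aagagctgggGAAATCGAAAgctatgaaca
Mndal, chr1:173880204-173880233, minus strand: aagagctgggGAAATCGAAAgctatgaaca
Ifi207, chr1:173741831-173741860, minus strand: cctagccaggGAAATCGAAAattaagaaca
Ifi205, chr1:174031870-174031899, minus strand: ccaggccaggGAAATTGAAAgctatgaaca
Ifi211, chr1:173913064-173913093, minus strand: caaagccaggGAAATTGAAAgctatgaacg
Ifit3, chr19:34583363-34583392, plus strand: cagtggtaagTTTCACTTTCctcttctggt
Ddx60, chr8:61928024-61928053, plus strand: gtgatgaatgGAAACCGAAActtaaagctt
Trim30a, chr7:104465210-104465239, minus strand: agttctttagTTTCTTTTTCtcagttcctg
The printed windows of Ifi203 and Mndal are the same 30 bases. Ifi203, Mndal and Ifi207 share the letters of the motif itself, as do Ifi206, Ifi208, Ifi213 and Ifi214, whose windows are not printed. The motif sites start 35, 36 and 41 bases before the gene start in Ifi203, Mndal and Ifi207. A match describes the letters of a window and does not show that a factor binds there, and the lack of one in the Ifi202b window says nothing about what regulates that gene.

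Ifi202b itself ranged from 8.56 through a median of 9.74 to 10.77 in the high-Ifi202b tumours, against 6.06, 7.53 and 8.48 in the low-Ifi202b tumours. Means were 9.72 ± 0.54 (SD, n = 36) and 7.58 ± 0.62 (SD, n = 20), a difference of 2.15 that the rule itself made and that was not tested. The values were continuous around the level. The arrays closest above it stood at 8.56, 8.70, 8.73 and 8.99, and those closest below it at 8.48 and 8.47. A second probe set, annotated to Ifi202b together with a second locus, had 8.80, 9.86 and 10.98 (lowest, median and highest) in high-Ifi202b tumours, against 5.87, 8.15 and 8.98 in low-Ifi202b tumours, so that this probe set overlapped between the sides.

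A pair of probe sets of the Ifi203 group (Ifi203, Ifi203-ps and unnamed loci beside them), each annotated to several neighbouring loci and therefore not assigned to a gene, gave a wider gap than Ifi202b did. The brighter of the pair ranged from 7.06 through 8.34 to 9.44 in high-Ifi202b tumours, against 4.87, 5.95 and 7.14 in low-Ifi202b tumours, and 34 of the 36 high-side arrays lay above every low-side array. The dimmer of the pair ran the other way, with 5.11, 5.55 and 6.63 in high-Ifi202b tumours, against 4.94, 5.83 and 7.09 in low-Ifi202b tumours. The difference of both probe sets on an array fell into 2 ranges with a gap between 0.97 and 1.91. Of the 36 high-side arrays, 33 lay in the upper range, while the 3 arrays with Ifi202b at 8.56, 8.70 and 8.73 lay in the lower range with all 20 low-side arrays. The 3 arrays had neighbouring differences of 0.97, 0.46 and 0.57 and belong to array sets 4, 4 and 3. This pair of probe sets was chosen after its values were seen, and the counts and gene calls that change when the 3 arrays change side are given beside the results.

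**Figure D1:**
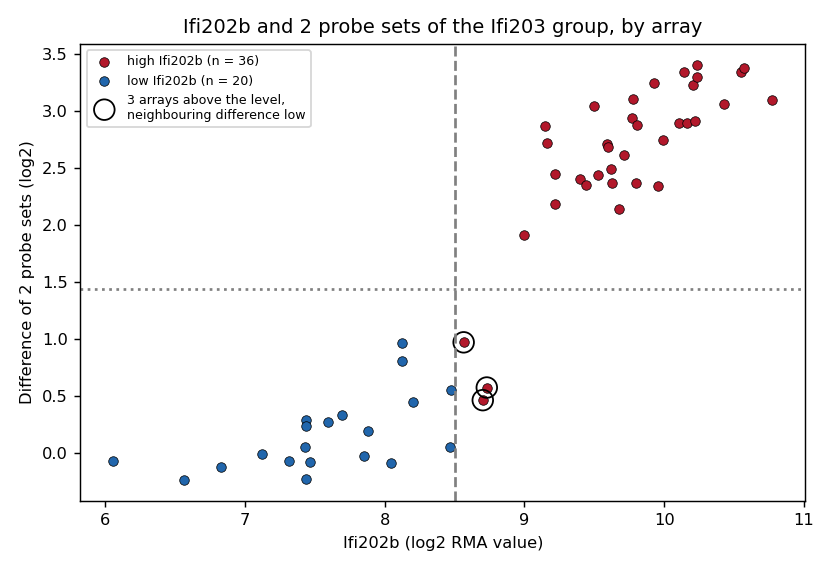
Each point is 1 of the 56 arrays, with its Ifi202b value (log2, x axis) and the difference of 2 probe sets of the Ifi203 group (log2, y axis). The dashed line marks 8.5 and the dotted line the middle of the gap. The 3 ringed high-side arrays share the lower range, up to 0.97, with the 20 low-side arrays, and the other 33 high-side arrays start at 1.91.

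Whole-series measures were spread over both sides. The arrays fall into array sets that were read from the expression values and that the labels do not name: array set 1 held 25 high-side and 14 low-side arrays, array set 3 held 6 and 3, and array set 4 held 5 and 3. Animal numbers below 4000 made up 26 of 36 high-side and 15 of 20 low-side arrays, and titles ending in R, which the labels do not explain, made up 6 and 2. All 8 of these arrays belong to array set 3, which holds 9 arrays, so that array set 3 and these titles cannot be told apart. The 18S mean was 5.96 ± 0.41 in high-Ifi202b and 5.81 ± 0.37 in low-Ifi202b tumours, and the 3' minus 5' difference of the actin control probe sets was 0.88 ± 0.21 and 0.89 ± 0.22 (SD, n = 36 and 20). Mammary epithelium was present on both sides, with luminal markers averaging 9.94 (median of arrays) in high-Ifi202b and 9.96 in low-Ifi202b tumours over 13 genes.

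Between the sides, 5 of 12560 genes were called (0.0398%), 2 higher (0.0159%) and 3 lower (0.0239%) in high-Ifi202b tumours, and all 5 lie on chromosome 1. The test was limma with array set as a covariate and Benjamini-Hochberg adjustment over all genes, and Ifi202b was left out. The median difference of all genes was -0.00. Unadjusted p under 0.05 was reached by 303 genes (2.41%). By place, that share was 20.5% of 127 genes within 10 Mb of Ifi202b, 9.20% of 87 genes from 10 to 20 Mb, 6.76% of 488 genes farther along chromosome 1, and 1.99% of 11815 genes on other chromosomes. Of the 5 calls, 4 lie within 10 Mb and 1 from 10 to 20 Mb, and 0 genes of other chromosomes were called, where 235 had an unadjusted p under 0.05.

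**Figure D2:**
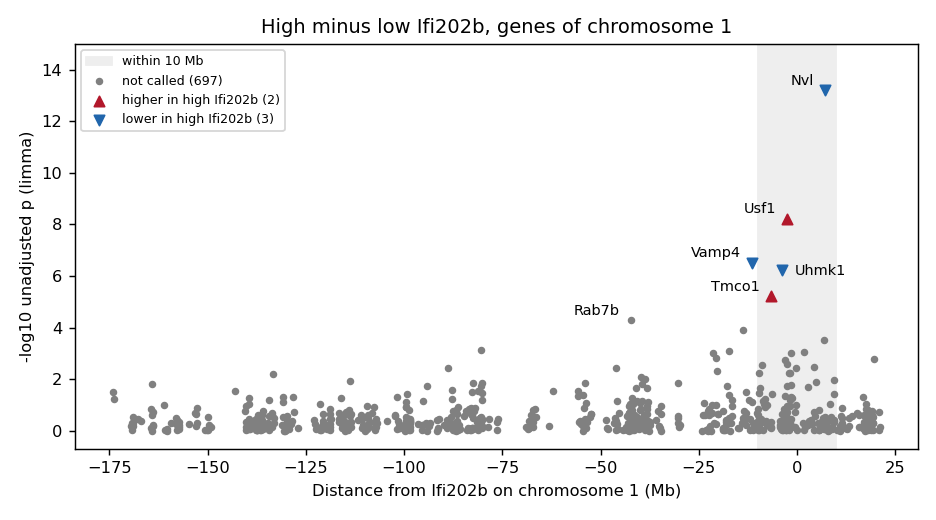
Each point is a gene of chromosome 1, placed by its distance from Ifi202b (Mb, x axis, GRCm38.p6) and the -log10 unadjusted p of the difference between high-Ifi202b and low-Ifi202b tumours (limma, y axis). The shaded band spans 10 Mb on each side. The 5 called genes lie between -11.4 and 7.14 Mb, and Rab7b at -42.3 Mb was not called.

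Nvl, an AAA ATPase of ribosome production that resembles VCP, was lowest relative to the low side of all called genes. It had 6.46, 6.72 and 7.54 (lowest, median and highest) in high-Ifi202b tumours, against 7.04, 7.26 and 7.67 in low-Ifi202b tumours. The sides overlapped, with 32 of 36 high-side arrays below every low-side array. The difference was -0.52 ± 0.05 (SE; limma, adjusted p = 7.96e-10), and it was -0.56 in array set 1, -0.54 in array set 3 and -0.30 in array set 4. Nvl lies at 7.14 Mb from Ifi202b, on its distal side.

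Usf1, a transcription factor that binds E-boxes, ranged from 5.57 through 6.83 to 7.40 in high-Ifi202b tumours, against 5.43, 6.31 and 6.81 in low-Ifi202b tumours. The sides overlapped, and 20 of 36 high-side arrays lay above every low-side array. It rose by 0.45 ± 0.07 (SE; limma, adjusted p = 3.72e-05). Its level moved with the array sets: in array set 3 the 6 high-side arrays had a median of 5.65 and the 3 low-side arrays 5.52, while in array set 1 the medians were 6.94 and 6.37. The difference within sets was 0.56 in array set 1, 0.19 in array set 3 and 0.17 in array set 4, and without array set in the model it was not called (limma, adjusted p = 0.99996). Usf1 lies at -2.56 Mb from Ifi202b, where a negative distance is on the centromeric side.

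Vamp4, a vesicle SNARE of the trans-Golgi network, had 8.60, 8.97 and 9.23 in high-Ifi202b tumours, against 8.99, 9.19 and 9.38 in low-Ifi202b tumours. All 20 low-side arrays lay above the high-side median, while the ranges overlapped. The difference was -0.23 ± 0.04 (SE; limma, adjusted p = 0.00129), and -0.21, -0.27 and -0.29 within array sets 1, 3 and 4. In array set 1 alone it was not called (adjusted p = 0.155). Vamp4 lies at -11.4 Mb.

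Uhmk1, a serine/threonine kinase that acts on splicing factors, had 7.35, 7.61 and 8.27 in high-Ifi202b tumours, against 7.68, 7.86 and 8.05 in low-Ifi202b tumours. It lay below every low-side array in 25 of 36 high-side arrays, and the highest value of all belonged to 1 of the 3 arrays just above the level. The difference was -0.22 ± 0.04 (SE; limma, adjusted p = 0.00181). The within-set values were -0.23, -0.19 and -0.20 in array sets 1, 3 and 4. Uhmk1 lies at -3.77 Mb.

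Tmco1, a calcium channel of the endoplasmic reticulum, had 9.80, 10.31 and 10.65 in high-Ifi202b tumours, against 9.68, 10.14 and 10.42 in low-Ifi202b tumours. Only 7 of 36 high-side arrays lay above every low-side array. It rose by 0.21 ± 0.04 (SE; limma, adjusted p = 0.0149), with 0.24 in array set 1, 0.26 in array set 3 and -0.00 in array set 4. Without array set in the model it was not called (adjusted p = 0.319). Tmco1 lies at -6.65 Mb. The split effect was not called different between array set 1 and the smaller sets for any of 12560 genes in limma (0%), and 315 genes had an unadjusted p under 0.05.

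**Figure D3:**
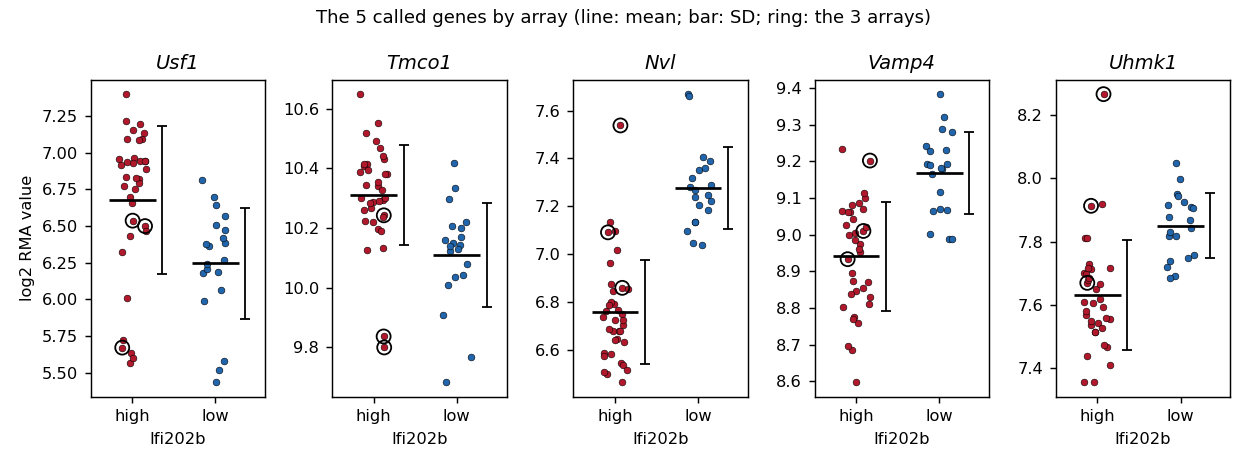
Each point is 1 array, with the log2 value of a called gene on the y axis, high-Ifi202b tumours on the left (n = 36) and low-Ifi202b tumours on the right (n = 20) of each panel. Lines are means, bars are SD and rings mark the 3 arrays closest above the level. Axes differ between panels. Usf1 and Tmco1 averaged higher, and Nvl, Vamp4 and Uhmk1 lower, in high-Ifi202b tumours, and the ranges of each gene overlapped.

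Several of these genes have more than 1 probe set, and the probe sets did not all move alike. For Nvl, 2 probe sets were lower (-0.52 and -0.33) and the dimmest was higher in high-Ifi202b tumours (0.30 ± 0.05, SE), and all 3 were called when 45035 probe sets were fitted. For Vamp4, the brightest probe set was lower (-0.23) while the next was higher (0.27 ± 0.05, SE), both called, and the dimmest stood at 0.03. Both brighter probe sets of Usf1 were higher (0.45 and 0.39). For Uhmk1, 1 of 5 probe sets was called, and the others ran from -0.01 to 0.09. Which probe set follows the transcript was not tested, so the direction given for Nvl and Vamp4 is that of the brightest probe set.

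Fitting all probe sets called 29 of 45035 (0.0644%), 17 higher (0.0377%) and 12 lower (0.0266%). Of these, 19 name 1 gene on chromosome 1, 14 distinct genes in all, and 0 name a gene on another chromosome. The other 10 were not assigned a place. Of them, 2 name several loci of the Ifi200 cluster on chromosome 1, 7 name no gene and 1 names a gene of no known place. Besides the genes above, those on chromosome 1 included Sde2, a telomere and replication-fork maintenance gene 6.89 Mb distal, with 2 of 6 probe sets called (-0.41 and -0.32). The brightest probe set of Sde2 differed by 0.02 ± 0.03 (SE) and was not called. Ncstn, which encodes nicastrin of the gamma-secretase complex, was higher (0.43 ± 0.08, SE) and so was the leukocyte receptor Slamf8 (0.31 ± 0.07), both within 2 Mb. The calls farthest away were the early response gene Btg2 at -39.9 Mb (-0.54 ± 0.12) and the proteasomal deubiquitinase Uchl5 at -30.2 Mb (0.66 ± 0.11). The called probe sets of Ncstn, Slamf8 and Uchl5 were dim. Their highest values on any array were 4.66, 4.90 and 3.86, below the 5.42 used to filter the comparison by gene. The brighter probe set of Btg2 differed by -0.10 and was not called. These genes were chosen after their values were seen.

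The next gene by p was Rab7b, a GTPase of late endosomes at -42.3 Mb, also chosen after its value was seen. It had 6.76, 7.92 and 8.71 in high-Ifi202b tumours, against 5.16, 7.11 and 8.38 in low-Ifi202b tumours, a difference of 0.68 ± 0.15 (SE; limma, adjusted p = 0.107). Its 3 lowest values on the high side were close together at 6.76, 6.78 and 6.78, and these belong to the 3 arrays just above the level. Without those 3 arrays, 6 of 12560 genes were called (0.0478%; 3 higher and 3 lower, 0.0239% each), namely the same 5 and Rab7b (0.76, limma adjusted p = 0.0143). With the sides taken from the neighbouring probe sets instead (33 against 23 arrays), the same 6 were called (0.0478%; 3 higher and 3 lower, 0.0239% each), with Nvl at -0.54 and Tmco1 at 0.26. The values of Rab7b are those of its brightest probe set. Its dimmer probe sets differed by -0.09 and -0.04 between the sides set by Ifi202b and were not called.

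Of the 13 Ifi200 family genes listed, 3 were tested in the split by a probe set of their own, and 0 were called. Of the probe sets shared by several members, 2 were called when all probe sets were fitted. The brighter of the Ifi203-group pair was higher by 2.20 ± 0.17, and that shared by Mndal, Ifi211, Ifi205 and Ifi204 by 1.01 ± 0.17 (SE). Others were not called. That shared by Ifi211 and Ifi205 averaged 8.83 in high-Ifi202b and 8.40 in low-Ifi202b tumours. The dimmer of the pair averaged 5.65 and 5.89, and a further probe set of the Ifi203 group 4.56 and 4.87. Ifi204, an interferon-inducible regulator of transcription, had 4.80, 5.65 and 7.18 in high-Ifi202b tumours, against 3.90, 5.24 and 6.32 in low-Ifi202b tumours. The difference was 0.49 ± 0.16 (SE; limma, adjusted p = 0.999), with 0.33, 0.85 and 0.88 within array sets 1, 3 and 4. Ifi209 differed by -0.33 ± 0.19 and Ifi203 by -0.00 ± 0.04 (SE). Ifi207, Mndal, Aim2 and Ifi213 were too dim for the filter, and in the fit without it they differed by 0.37, 0.17, 0.08 and -0.02, with 0 called. The Aim2 probe set had medians of 3.32 in high-Ifi202b and 3.29 in low-Ifi202b tumours, which is below the median of all values on the arrays, 5.42. Of the other neighbours of the cluster, 45 of 76 listed were tested and 1, Usf1, was called, against 0.0398% of all genes, and 10 had an unadjusted p under 0.05, against 2.41% of all genes. The list had a median difference of 0.03 and a range from -0.14 to 0.45. Hsd11b1, a glucocorticoid-activating enzyme gene 19.3 Mb distal that has been tied to Ifi202b in mouse fat, differed by 0.14 ± 0.13 (SE; limma, adjusted p = 0.999).

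Of 30 tested interferon response genes, 0 were called between the sides in limma, against 0.0398% of all genes, and 0 had an unadjusted p under 0.05, against 2.41% of all genes. With shares that low, a count of 0 in 30 genes is near the background. Their median difference was 0.02, with a range from -0.11 (Oas2) to 0.13 (Rsad2), against a median of -0.00 and a central 95% range from -0.11 to 0.16 over all 12560 genes. The outermost bounds of the 30 intervals were -0.64 and 0.60. Precision differed between genes, with an SE of the difference from 0.10 (Ifi35) to 0.27 (Ifit3). A small difference in a single gene could therefore have been missed, more so in the genes of large SE. With the sides taken from the neighbouring probe sets the list median was -0.05 and 5 of 30 differences were positive, against 20 of 30 here, with 0 called. Averaged over the 30 genes, arrays ran from 7.36 through 8.55 to 9.54 in high-Ifi202b tumours, against 7.50, 8.33 and 9.33 in low-Ifi202b tumours, nearly the same range. Interferon gamma response genes (16 tested, median 0.05), interferon ligands and signalling genes (15, median 0.01), cytosolic nucleic acid sensors (18, median 0.02) and inflammasome genes (9, median 0.03) had 0 calls each. The same holds for 15 tested genes reported as partners or targets of p202 (median 0.00), and for p53 targets (14, median 0.04), DNA replication (20, median -0.06) and mitosis (19, median -0.06).

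Markers of other cells in the tumour piece had 0 calls in the split as well. The macrophage list averaged 8.67 in high-Ifi202b and 8.68 in low-Ifi202b tumours (medians of arrays, 17 genes). Arrays ranged from 8.02 to 9.27 on the high side, against 7.61 to 9.53 on the low side. The widest list medians were those of skeletal muscle (0.48 over 12 genes), milk protein and secretion (0.22 over 11) and B and plasma cells (0.17 over 7). Glycam1, a mucin-like milk protein, had the largest difference of the named genes at 1.26 ± 0.61 (SE; limma, adjusted p = 0.999), with arrays from 4.06 to 12.91 in high-Ifi202b and 3.03 to 10.90 in low-Ifi202b tumours.

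Within each side, by contrast, Ifi202b and the interferon genes varied together. Slopes are log2 units of a gene per log2 unit of Ifi202b, fitted in limma within 1 side with array set as a covariate, and they do not use the difference between the sides. On the high side 68 of 12560 genes were called (0.541%), 67 rising with Ifi202b (0.533%) and 1 falling (0.00796%). On the low side 155 were called (1.23%), 104 rising (0.828%) and 51 falling (0.406%). Of the interferon response list, 23 of 30 genes rose in high-Ifi202b tumours and 11 of 30 in low-Ifi202b tumours. All 30 slopes were positive on each side, with medians of 0.71 and 0.70, against -0.00 over all genes tested on each side. Both sides called 23 genes in common, which are 33.8% of the high-side and 14.8% of the low-side calls, and 0 of them were among the 5 genes of the split. Whether a slope differed between sides was tested by an interaction, which called 0 of 12560 genes (0%), with 717 at an unadjusted p under 0.05.

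**Figure D4:**
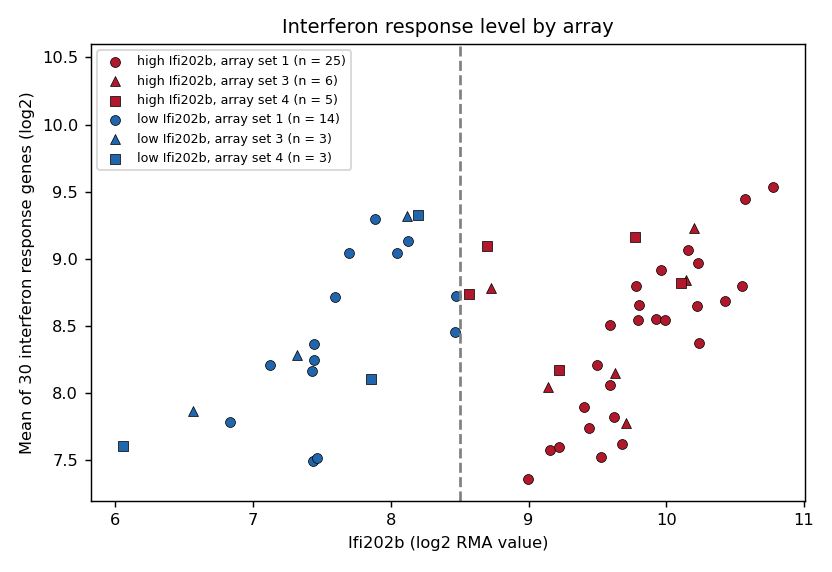
Each point is 1 of the 56 arrays, with its Ifi202b value (log2, x axis) and the mean of 30 interferon response genes (log2, y axis). Symbols mark array sets, and the dashed line marks 8.5. Interferon response spans 7.36 to 9.54 in high-Ifi202b and 7.50 to 9.33 in low-Ifi202b tumours. With array set as a covariate, the slopes of the 30 genes on Ifi202b are positive within each side. The 3 high-side arrays of lowest Ifi202b run against this, with means of 8.74, 9.10 and 8.78, while the next array has 7.36.

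Ifit3, an antiviral protein induced by type I interferon, had the steepest called slope of the high side. Its level ran from 6.41 through 8.33 to 10.19 in high-Ifi202b tumours, against 6.71, 8.24 and 10.18 in low-Ifi202b tumours, so the sides covered the same range. Its slope was 1.30 ± 0.25 on the high side and 1.14 ± 0.26 on the low side (SE; limma, adjusted p = 0.00826 and 0.0390). Trim30a, an interferon-induced ubiquitin ligase, had the steepest called slope of the low side, 1.35 ± 0.20 against 1.04 ± 0.21 on the high side (adjusted p = 0.00503 and 0.0110 in limma).

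Among regulators of the pathway, Irf7, the transcription factor that amplifies type I interferon, rose by 1.17 ± 0.21 per unit of Ifi202b in high-Ifi202b tumours. Stat2 and Irf9, which act together in the type I interferon response, rose there by 0.56 ± 0.13 and 0.48 ± 0.10. Their low-side slopes were 0.85, 0.27 and 0.29 and were not called. The receptor chain Ifnar1 had slopes of -0.02 ± 0.06 on the high side and 0.10 ± 0.06 on the low side, and neither was called. Of 15 ligand and signalling genes, 3 rose on the high side and 0 were called on the low side. Over all genes, 0.541% and 1.23% were called in either direction, so a count of 0 in 15 is near the low-side background. With the 3 arrays moved to the low side, Irf7 was called on both sides (1.69 and 0.75).

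Among effectors, Usp18, which removes Isg15 from proteins, had a high-side slope of 1.17 ± 0.22. The oligoadenylate synthetase family members Oasl2 and Oas2 both had 1.14, the RNA helicase Ddx60 had 1.08 ± 0.18, and the antiviral GTPase Mx1 had 0.95 ± 0.18 (SE), all called. Their low-side slopes ran from 0.72 to 1.07 and were not called, but with the 3 arrays moved to the low side those of Oasl2 (0.95 ± 0.20) and Ddx60 (0.76 ± 0.19) were. The viral RNA sensor Ifih1 was called on both sides (0.57 and 0.55). Of 18 cytosolic nucleic acid sensing genes, 2 rose on the high side (Adar and Zbp1), against 0.541% of all genes called. On the low side 0 were called, against 1.23% of all genes. With the 3 arrays moved to the low side, 4 rose on the high side and 2 on the low side, Zbp1 on both. The shares over all genes were then 3.65% and 1.8%. The DNA sensors Cgas and Sting1 lay between -0.03 and 0.03 on both sides and were not called.

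Interferon gamma response genes rose on each side, 8 of 16 in high-Ifi202b tumours and 10 of 16 in low-Ifi202b tumours, with medians of 0.52 and 0.66, against 0.541% and 1.23% of all genes called in either direction. The guanylate-binding protein Gbp2 (0.55 and 0.78) and the immunity-related GTPases Igtp (0.68 and 0.93) and Irgm2 (0.72 and 0.82) were called on both sides. The peptide transporter Tap1 was called only on the high side (0.60 ± 0.10, against 0.40 ± 0.13), and the immunoproteasome subunit Psmb8 and the chemokines Cxcl9 and Cxcl10 only on the low side, while no interaction was called. With the 3 arrays moved to the low side, Psmb8 and Cxcl10 were called on both sides. Antigen presentation genes outside the lists were also called on both sides, chosen after their values were seen: B2m, the light chain of class I molecules (0.40 and 0.40), H2-K1 (0.37 and 0.34) and H2-D1 (0.33 and 0.30).

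**Figure D5:**
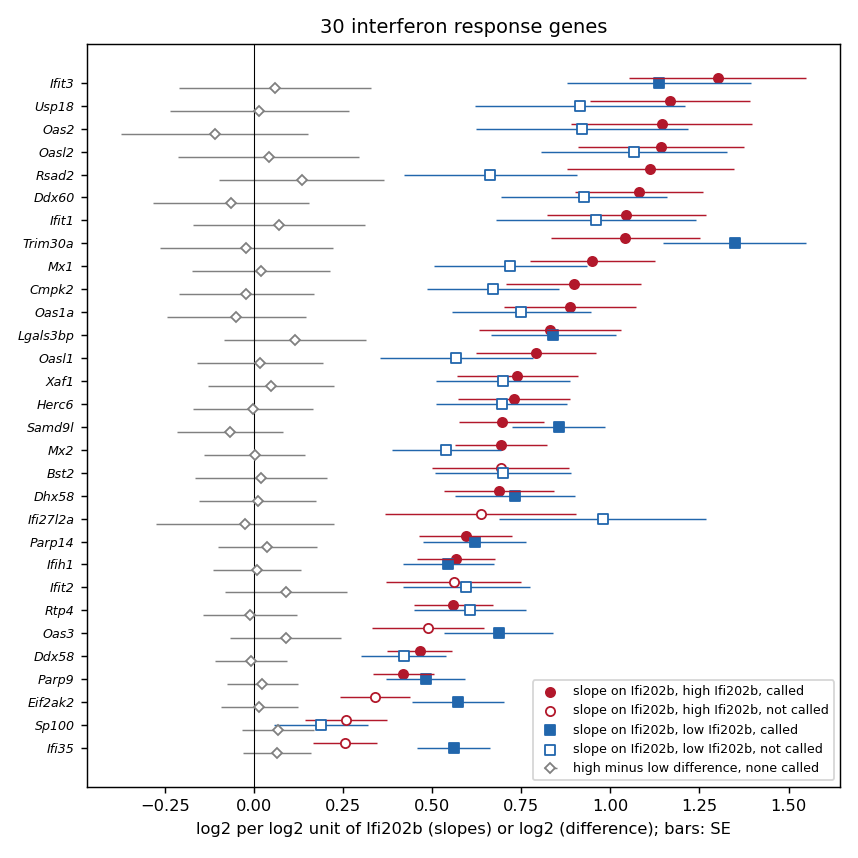
For each of 30 interferon response genes, red circles and blue squares give the slope on Ifi202b within high-Ifi202b and low-Ifi202b tumours (log2 per log2 unit) and grey diamonds the high minus low difference (log2), all with SE bars. Filled symbols are called. The 30 slopes of each side lie above 0, from 0.19 to 1.35, while the differences lie between -0.11 and 0.13.

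Ifi204 had the lowest adjusted p of the named genes on the low side, with a slope of 0.90 ± 0.08 (SE; limma, adjusted p = 2.81e-05), and Ifi209 had 0.88 ± 0.14 (adjusted p = 0.00570 in limma). On the high side their slopes were 0.52 ± 0.18 and 0.42 ± 0.23 and were not called. Ifi204 was called on the high side in array set 1 alone and, at 0.96 ± 0.15, without the 3 arrays just above the level. Other steep low-side slopes were those of Gm4951 (1.29), of the membrane protein Tspan8 (1.20), and of the interferon-induced GTPase Ifi47 (1.03). Prom1, a surface protein of epithelial progenitors, fell by 0.57 ± 0.10 per unit of Ifi202b on the low side, Cpt1a, the carnitine transferase of mitochondrial fat oxidation, by 0.51 ± 0.10, and the metallothionein Mt1 by 0.63 ± 0.15. On the high side these 3 had slopes of 0.07, -0.10 and 0.09. With the 3 arrays moved to the low side, Prom1 was still called there (-0.54), while Cpt1a, Mt1 and Tspan8 were not called on either side, and Gm4951 and Ifi47 were called on both. The only gene that fell on the high side was the mitotic kinesin Kif18a, by 0.31 ± 0.08.

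Some markers of other cells were called on the low side, and the interaction called none of them different between the sides. Of 17 macrophage markers, 3 rose there (Csf1r 0.47, Ctss 0.44 and Fcgr1 0.50) with a list median of 0.37, while on the high side 0 of 17 were called and the median was 0.07. The shares over all genes were 1.23% on the low side and 0.541% on the high side. With the 3 arrays moved to the low side, 5 of 17 were called there. On the high side 2 of 17 were (Cd14 and Ctss). The shares over all genes were then 1.8% on the low side and 3.65% on the high side. In array set 1 alone 0 of 17 were called on each side, where 0.0159% (low) and 1.4% (high) of all genes were. The defining markers Adgre1 and Cd68 had low-side slopes of 0.21 and 0.18 that were not called. Of 6 class II genes, 2 also rose on the low side, H2-Aa (0.78) and H2-Ab1 (0.58), with a list median of 0.48. The myeloid integrin Itgax (0.44) rose there as 1 of 9 dendritic and plasmacytoid cell genes (median 0.16). The cytotoxic protease Gzmb (0.50) rose there as 1 of 9 T and NK cell genes (median 0.27). On the high side 0 genes of these lists were called. With the 3 arrays moved to the low side, Itgax was called on both sides, and 0 of 9 T and NK cell genes on either. In 19 mitosis genes, 4 fell on the low side (Bub1b, Ccnb2, Cenpa and Plk1, by 0.45, 0.39, 0.42 and 0.41) and 0 on the high side, with list medians of -0.34 and -0.24. Over all genes, 0.406% fell on the low side and 0.00796% on the high side. These counts depended on the 3 arrays. Once the arrays were moved to the low side, 0 of 19 were called there, against 0.406% of all genes falling. On the high side 7 of 19 then fell (Aurkb, Bub1, Cdk1, Cenpe, Cenpf, Kif11 and Top2a), against 1.89% of all genes. The list medians were then -0.26 on the low side and -0.33 on the high side. In array set 1 alone 0 of 19 were called on each side. Skeletal muscle markers, with 0 of 12 called, had a median slope of 1.43 on the low side, all 12 positive, and of -0.29 on the high side. The part of these cells in the interferon slopes was not tested.

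The slopes depended on which arrays entered. In array set 1 alone, 28 of 30 interferon response genes were called on the high side (25 arrays, median 1.13, 1.4% of all genes called) and 0 of 30 on the low side (14 arrays, median 0.64, 0.0159% of all genes called), with all 30 slopes positive on both. The only low-side genes called there were Ifi204 (1.06 ± 0.10) and Ms4a4c (0.91 ± 0.12, SE). In array set 3 the median was 0.25 on the high side (6 arrays) with 0 of 30 called (0% of all genes), and 0.94 on the low side (3 arrays) with 10 of 30 called (3% of all genes), all 30 slopes positive on both. In array set 4 the high side (5 arrays, of which 2 are among the 3 just above the level) had a median of 0.07, with 19 of 30 slopes positive. Its low side (3 arrays) had a median of 0.58 with all 30 positive, and 0 of 30 were called on either side (0% of all genes). A fit to 3 arrays leaves 1 residual degree of freedom, and its calls lean on the spread pooled over genes. On the low side of array set 3 the SE was 0.32 for every interferon response gene. A call there is a cut on the size of the slope, not a test against the spread of that gene. Without array set in the model, 0 genes were called on the high side. With the sides taken from the neighbouring probe sets, which moves the 3 arrays to the low side, 458 of 12560 genes (3.65%) were called on the high side, 220 rising (1.75%) and 238 falling (1.89%), and 29 of 30 interferon response genes rose with a median of 1.10. On the low side 226 (1.8%) were called, 175 rising (1.39%) and 51 falling (0.406%), with 16 of 30 interferon response genes and a median of 0.59. The 3 arrays had interferon means of 8.74, 9.10 and 8.78, and the next array of the high side, with Ifi202b at 8.99, had 7.36.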

How the data were processed

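The deposited values are log2 values that the authors made with RMA from Affymetrix arrays, per the submitters' processing notes. The log base is read from the range of the values and is not stated. The labels form 1 group, and array sets were read from the values, as divisions of the arrays shared by 20 or more probe sets spread over 10 or more chromosomes. The members and gene lists (26 lists) were chosen with earlier results of these data known. Each gene was represented by its highest-mean probe set and tested if its 95th percentile exceeded the median of all values (5.42). Genes came from the platform annotation; 34945 probe sets name 1 gene, 932 several and 9160 none here. No genome build is given for the array, so GRCm38.p6 served for names, distances and promoters. Fits used limma 3.58.1 (lmFit and eBayes, R 4.3.3) and Benjamini-Hochberg at 0.05. Only the model of the split was tested on simulated data, and the slopes and interactions were not. P-values measure the spread between tumours, and the number of arrays limits precision.

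Named genes were the Ifi200 family, Hsd11b1, called genes of chromosome 1 (up to 25), the 10 largest called differences each way elsewhere, the 10 largest called slopes each way, and per list up to 4 members by difference and all called. Alternatives changed array sets, arrays, the level, the probe set, the filter, the scaling and covariates.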

Additional observations from a re-analysis of the deposited data

Results flagged for a closer look

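Some probe sets that name no single gene, and therefore enter none of the comparisons by gene, also separated high-Ifi202b from low-Ifi202b tumours in the fit of all probe sets (limma). The brighter of the Ifi203-group pair was higher by 2.20 ± 0.17 (SE), and a probe set annotated to Mndal, Ifi211, Ifi205 and Ifi204 by 1.01 ± 0.17. Of 7 probe sets that the annotation used here does not name, 6 were higher: 1456955_at by 0.94 ± 0.11, 1434362_at by 0.69 ± 0.11, 1443109_at by 0.69 ± 0.10, 1425499_at by 0.68 ± 0.12, 1458200_at by 0.36 ± 0.06 and 1444772_at by 0.21 ± 0.04. The seventh, 1430183_at, differed by -0.47 ± 0.07. On 1456955_at, 27 of 36 high-side arrays lay above every low-side array. Where these 7 lie in the genome is not known here.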

How the results depend on the processing

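The 5 calls of the split became 3 without array set, 0 in array sets 3 and 4 together, 0 in each alone, 9 with Ifi202b as a continuous variable, 29 over all probe sets and 40 over all probe sets with sides from the neighbouring probe sets, that pair left out; in the other alternatives the count was 4 to 7. Sets 3 and 4 hold 9 and 8 arrays. Vamp4 turned to 0.27 with the probe set of the largest SD, and Tmco1 to -0.000221 in array set 4. On chromosome 5, 1 gene was called with arrays within 0.5 of the level left out (Gtf2h3, -0.18), and 1 gene of no known place was called with no filter (2810414N06Rik, -0.33). The high-side slope calls, 68, became 0 without array set, 176 in array set 1, 0 in array sets 3 and 4 each and 458 with neighbouring sides, and the 23 interferon response calls became 0 without array set and 0 in array sets 3 and 4 each. The low-side slope calls, 155, became 95 without array set, 2 in array set 1, 377 in array set 3, 0 in array set 4 and 275 with each array centred. The 377 come from a fit to 3 arrays, in which a call is a cut on the size of the slope. The 11 interferon response calls became 6 without array set, 0 in array sets 1 and 4 each and 7 with no filter. The cause was not tested. In array set 4, 11 high-side slopes turned, with 0 called there: Ifit2 -0.45, Ifit1 -0.26, Oas3 -0.23, Bst2 -0.20, Xaf1 -0.17, Ifit3 -0.13, Oasl2 -0.10, Dhx58 -0.10, Ifi35 -0.0385, Sp100 -0.0268 and Parp9 -0.0198. In the other alternatives the interferon response slopes were positive. No paired analysis was possible because the labels form 1 group.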

Other observations

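The 12 arrays left out for high 18S control values carry both levels as well. They are not all new animals, since 2 of them are second arrays of animals among the 56 kept, and 10 are of other animals. The pairs read 7.58 (left out) and 8.47 (kept), and 8.85 (left out) and 9.40 (kept), for Ifi202b, each pair on 1 side. Of the 12, 9 had Ifi202b above 8.5 and 3 did not. By the neighbouring probe sets, 8 lay in the upper range, from 1.86, and 4 in the lower, up to 1.24, and both readings placed 11 of 12 arrays alike. The array placed differently had Ifi202b at 8.62, and the lowest of the 8 had 8.72.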
